A study of Mus musculus with 6 samples.

Results

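The 10 genes described here encode the output and part of the control of the Hippo pathway: the coactivators Yap1 and Wwtr1 (the gene of TAZ), their DNA-binding partners Tead1, Tead2, Tead3 and Tead4, the kinases Lats1 and Lats2, the TEAD cofactor Vgll4 and the LIM-domain protein Ajuba. They were taken by name from the rows of the array that are annotated with exactly 1 gene, using the row with the highest mean where a gene had several, and all 10 were found among 22179 genes. Expression was measured in 6 samples of mouse small-cell lung cancer, a neuroendocrine lung tumour. The GFP-high group (3 arrays) and the GFP-negative group (3 arrays) were sorted by the fluorescence of a reporter from tumours of the same kind of animal; the labels give the GFP-negative group as negative or low. In all of these animals adenoviral Cre given into the trachea had deleted conditional alleles of Rb, p53 and p130, and all carried an allele in which green fluorescent protein reports the expression of Hes1, a repressor induced by Notch signalling. Tumours were taken 5 to 6 months after Cre and pooled from 3 mice before sorting. The sources used here do not state the cell type in which Cre acted, the age of the animals, whether each array had a pool of its own or whether arrays of the same number share one, and the p-values therefore cover the spread between these samples only.

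In the Hippo pathway a cascade of kinases ends in LATS1 and LATS2, which phosphorylate YAP and TAZ and keep them out of the nucleus. When the cascade is inactive, YAP and TAZ enter the nucleus, bind TEAD proteins and switch on genes of growth, adhesion and matrix. VGLL4 competes with YAP for TEAD, and AJUBA binds LATS kinases and restrains them. In normal lung YAP and TAZ act in alveolar type 1 and airway cells, and in small-cell lung cancer YAP is known to be low or absent in neuroendocrine cells. The array reads messenger RNA only, and the activity of this pathway is set largely by phosphorylation of the proteins.

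Most of the genes were higher in GFP-high cells, Lats1 was slightly lower, and Tead1 did not pass the test. The largest rises were those of Wwtr1 (11.8-fold) and Ajuba (8.26-fold), with smaller rises of Yap1 (3.88-fold; log2 fold change 1.96, or 1.23 with the mean of its rows) and Lats2 (3.54-fold). Of the 10 genes, 8 were called higher at an adjusted p under 0.05 (limma, Benjamini-Hochberg over all genes), where 13.0% of all genes were called higher, and 1 was called lower, where 17.0% of all genes were. In either direction 30% of all genes were called. The 10 genes were chosen with earlier results of these data known, so these counts are a description and not a test. The median log2 fold change was 1.40 over the 10 genes and 0.01 over all genes. In 9 of the 10 the 3 values of the groups did not overlap, as in 44.6% of all genes. These are values of bulk samples, in which fewer cells of a type and less RNA per cell cannot be told apart.

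The promoters of the genes with the largest rises are shown because these genes moved together. Lats1 is shown for comparison, and its lower call did not hold in every fit. Each is the window from 250 bases before to 50 bases after an annotated start, 5′ to 3′ on the gene's strand, from RefSeq (GRCm38.p6). Capitals mark the TEAD core GGAATG or its reverse complement CATTCC.
Wwtr1, chr3:57575861-57576160, minus strand: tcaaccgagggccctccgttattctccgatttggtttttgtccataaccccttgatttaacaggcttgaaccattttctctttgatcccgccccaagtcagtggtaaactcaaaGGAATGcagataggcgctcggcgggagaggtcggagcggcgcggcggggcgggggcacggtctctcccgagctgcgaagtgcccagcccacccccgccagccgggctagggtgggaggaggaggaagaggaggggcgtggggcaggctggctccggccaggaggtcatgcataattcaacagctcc
Yap1, chr9:8004547-8004846, minus strand: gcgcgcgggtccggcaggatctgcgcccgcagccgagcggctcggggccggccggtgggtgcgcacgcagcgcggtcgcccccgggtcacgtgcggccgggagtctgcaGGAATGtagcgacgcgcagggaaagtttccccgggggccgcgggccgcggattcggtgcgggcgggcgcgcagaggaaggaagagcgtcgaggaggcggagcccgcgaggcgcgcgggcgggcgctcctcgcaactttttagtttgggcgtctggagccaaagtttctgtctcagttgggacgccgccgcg
Ajuba, chr14:54577612-54577911, minus strand: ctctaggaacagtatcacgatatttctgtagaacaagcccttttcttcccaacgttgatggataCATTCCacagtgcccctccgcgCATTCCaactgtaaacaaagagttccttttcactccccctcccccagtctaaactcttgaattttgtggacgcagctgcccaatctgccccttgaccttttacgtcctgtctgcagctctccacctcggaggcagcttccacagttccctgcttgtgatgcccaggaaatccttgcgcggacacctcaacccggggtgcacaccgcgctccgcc
Lats2, chr14:57746074-57746373, minus strand: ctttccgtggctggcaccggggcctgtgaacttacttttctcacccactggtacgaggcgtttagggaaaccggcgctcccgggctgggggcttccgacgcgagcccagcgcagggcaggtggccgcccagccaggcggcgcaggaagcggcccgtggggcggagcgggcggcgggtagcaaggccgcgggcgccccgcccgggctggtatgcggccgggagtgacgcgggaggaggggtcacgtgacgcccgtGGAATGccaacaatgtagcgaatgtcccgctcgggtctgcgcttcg
Lats1, chr10:7680959-7681258, plus strand: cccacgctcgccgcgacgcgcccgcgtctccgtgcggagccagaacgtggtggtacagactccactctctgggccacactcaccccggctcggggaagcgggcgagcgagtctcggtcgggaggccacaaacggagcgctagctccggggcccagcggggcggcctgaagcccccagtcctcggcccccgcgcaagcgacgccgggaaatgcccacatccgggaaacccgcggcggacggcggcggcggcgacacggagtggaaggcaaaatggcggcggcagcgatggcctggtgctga
The core began 136 bases before the start in the Wwtr1 window, 141 before it in that of Yap1, 186 and 164 before it in that of Ajuba, and at base 5 after the start in that of Lats2. The Lats1 window had no match. Windows were given for 8 of the 10 genes, not for Tead1 and Tead4, and Wwtr1, Lats2 and Tead3 had more than 1. A match was found in at least 1 window of 6 of these 8 genes, namely those above other than Lats1, with Tead3 and Vgll4, and in 16.6% of all 27025 genes with a window. Tead2, which rose (log2 fold change 1.28), had no match. Lats1 was the only lower gene among these 8, too few to set matches against direction, and a relation was not tested. Counted by window, some of which overlap, 8 of 12 held a match, against 14.7% of 32851 windows. The second Lats2 window, which is not printed above, had none. The core of the RBPJ site, TGGGAA or its reverse complement TTCCCA, through which Notch acts and which can share letters with the TEAD core, was found in 4 of the 8 genes (Ajuba, Tead2, Tead3 and Vgll4) and in 28.3% of all genes. It was in none of the Wwtr1, Yap1, Lats1 and Lats2 windows. A match of 6 letters is a description of these windows and not a binding site.

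Wwtr1 encodes TAZ, a coactivator closely related to YAP. Its log2 values were 9.07, 9.21 and 8.88 in GFP-high cells, against 5.61, 5.26 and 5.62 in GFP-negative cells. The groups were far apart, with no GFP-high array within 3 log2 units of a GFP-negative one. The mean was 9.05 ± 0.16 in GFP-high cells and 5.49 ± 0.20 in GFP-negative cells (SD, n = 3 each), a log2 fold change of 3.56 ± 0.14 (SE, adjusted p = 8.19e-07 by limma). Over all genes, 138 had a larger rise.

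Yap1 rose as well. It read 8.24, 8.25 and 7.98 in GFP-high cells, against 6.03, 6.13 and 6.44 in GFP-negative cells, so the groups were separate. The log2 fold change was 1.96 ± 0.15 (SE; mean 8.15 ± 0.16 in GFP-high cells against 6.20 ± 0.21 in GFP-negative cells, SD, n = 3 each; adjusted p = 2.55e-05 by limma). Yap1 is the only one of the 10 genes with another row on the array, and that row lay near the bottom of the scale, where RMA compresses folds. It read 4.28, 4.005 and 4.13 in GFP-high cells and 3.65, 3.51 and 3.74 in GFP-negative cells. It also rose, by 0.50 ± 0.13 (log2 fold change ± SE, adjusted p = 0.0336 over all rows, of which 18.9% were called). With the mean of both rows the change of Yap1 was 1.23.

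The gap between the coactivators was itself measured within each array. Wwtr1 minus Yap1 was 0.84, 0.95 and 0.90 log2 units in GFP-high cells, against -0.42, -0.87 and -0.82 in GFP-negative cells. The difference between the groups was 1.60 and they did not overlap (exact two-sided permutation p = 0.10, the smallest that 3 against 3 arrays can give; adjusted p = 0.133 over the 8 pairs of related genes compared). Because a row's level depends on its probes, only the change of this gap between groups can be read, not its sign in a group. The relation of the values is shown in the plot of each gene by array.

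**Figure D1:**
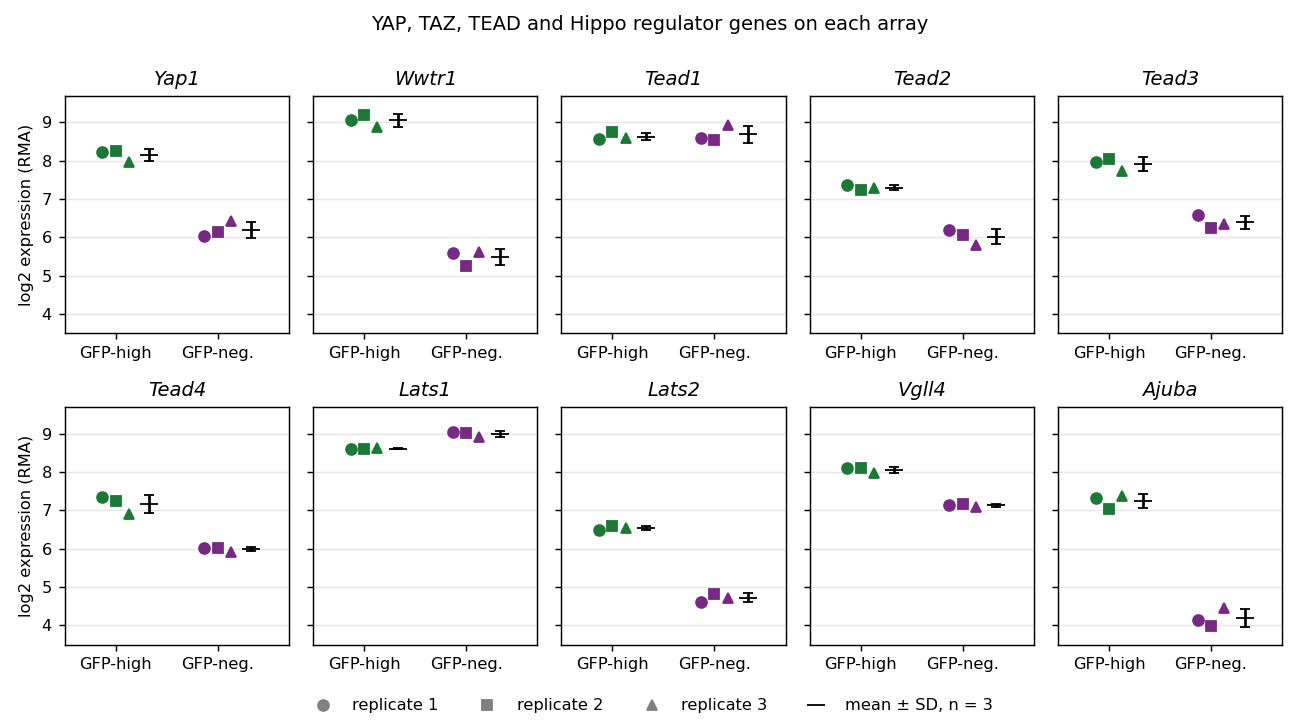
Log2 expression (RMA, y axis) of the 10 genes on each array, GFP-high left and GFP-negative right; symbols mark replicate numbers and black bars the mean ± SD of 3 arrays. The groups are separate for every gene except Tead1, and Lats1 is the gene with lower GFP-high values (8.59 to 8.61, against 8.90 to 9.05 in GFP-negative cells).

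TEAD proteins carry YAP and TAZ to DNA, and 3 of the 4 genes of the family were higher in GFP-high cells. Tead3 had 7.97, 8.06 and 7.73 in GFP-high cells, against 6.58, 6.25 and 6.35 in GFP-negative cells. Tead2 had 7.36, 7.23 and 7.30 in GFP-high cells, against 6.19, 6.06 and 5.81 in GFP-negative cells. Tead4 had 7.35, 7.24 and 6.91 in GFP-high cells, against 6.01, 6.01 and 5.92 in GFP-negative cells. In each of these every GFP-high array lay above every GFP-negative array. The log2 fold changes were 1.52 ± 0.14 for Tead3 (adjusted p = 8.04e-05), 1.28 ± 0.13 for Tead2 (adjusted p = 0.000136) and 1.18 ± 0.14 for Tead4 (adjusted p = 0.000266; SE, n = 3 each, limma), which is between 2.27-fold and 2.88-fold.

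Tead1 was the exception in the family. Its values were 8.56, 8.75 and 8.59 in GFP-high cells, against 8.60, 8.53 and 8.94 in GFP-negative cells, and the groups overlapped. The log2 fold change was -0.06 ± 0.14 (SE, adjusted p = 0.812 by limma), with a 95% confidence interval from -0.37 to 0.26. Its sign turned to 0.07 without GFP-negative replicate 3, so no direction can be given. The gap of each other TEAD gene to Tead1 did not overlap between groups. Tead3 minus Tead1 changed by 1.58 log2 units, Tead2 minus Tead1 by 1.33 and Tead4 minus Tead1 by 1.24 (exact permutation p = 0.10 and adjusted p = 0.133 in each). Among Tead2, Tead3 and Tead4 the differences in change were smaller. Tead4 minus Tead3 was -0.34, with separate groups (exact permutation p = 0.10, adjusted p = 0.133). Tead3 minus Tead2 was 0.25 (exact permutation p = 0.20, adjusted p = 0.229) and Tead4 minus Tead2 was -0.10 (exact permutation p = 0.70, adjusted p = 0.70), both with groups that overlapped. Tead3 minus Tead2 was 0.14 without GFP-high replicate 2 and 0.15 without GFP-negative replicate 2, and Tead4 minus Tead2 turned to 0.04 without GFP-high replicate 3.

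The LATS kinases, which phosphorylate and restrain YAP and TAZ, differed in direction, but the lower call of Lats1 did not hold in every fit. Lats2, which is also a known target of YAP and TAZ, read 6.50, 6.58 and 6.54 in GFP-high cells, against 4.60, 4.83 and 4.72 in GFP-negative cells. Its groups were tight and well separated, with a log2 fold change of 1.82 ± 0.11 (SE, n = 3 each; adjusted p = 7.85e-06 by limma). Its GFP-negative values lay below the array medians of 5.30 to 5.43, where folds are compressed. Lats1 read 8.60, 8.59 and 8.61 in GFP-high cells, against 9.05, 9.004 and 8.90 in GFP-negative cells. It was lower in every GFP-high array, by a small amount (log2 fold change -0.39 ± 0.11, SE, n = 3 each; 1.31-fold lower; adjusted p = 0.0231 by limma). That call was lost when any of 5 of them was left out (adjusted p up to 0.0835, without GFP-negative replicate 1) and among these held only without GFP-negative replicate 3 (adjusted p = 0.0347). It was also lost with the replicate number as a block (adjusted p = 0.0551) and in a test for a log2 change beyond 1. Lats2 minus Lats1 was -2.10, -2.01 and -2.07 in GFP-high cells, against -4.45, -4.18 and -4.18 in GFP-negative cells. This change of 2.21 was the largest of the 8 pairs compared, except that Wwtr1 minus Yap1 reached 2.33 with the mean of both Yap1 rows (exact permutation p = 0.10, adjusted p = 0.133).

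Ajuba and Vgll4 were both higher. Ajuba, a scaffold of cell junctions that binds LATS kinases, read 7.32, 7.04 and 7.38 in GFP-high cells, against 4.15, 3.99 and 4.46 in GFP-negative cells. The groups were separate by more than 2 log2 units at their nearest arrays, with a log2 fold change of 3.05 ± 0.16 (SE, n = 3 each; adjusted p = 2.77e-06 by limma). Its GFP-negative values lay below the array medians as well. Vgll4, which competes with YAP for TEAD, read 8.11, 8.11 and 7.97 in GFP-high cells, against 7.13, 7.18 and 7.09 in GFP-negative cells. It had the smallest rise of the 8, at 0.93 ± 0.11 (log2 fold change ± SE, 1.91-fold, adjusted p = 0.000255 by limma).

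Ranked by change, the order was Wwtr1, Ajuba, Yap1, Lats2, Tead3, Tead2, Tead4, Vgll4, Tead1 and Lats1. It holds for the row of Yap1 with the highest mean: with the mean of both rows Yap1, at 1.23, came after Tead2. Without GFP-high replicate 3, Tead4 (1.31) came before Tead2 (1.28). The 95% confidence intervals of neighbours in that order overlapped, with 2 exceptions. Ajuba (2.69 to 3.40) lay above Yap1 (1.62 to 2.29), and Vgll4 (0.69 to 1.17) lay above Tead1 (-0.37 to 0.26).

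**Figure D2:**
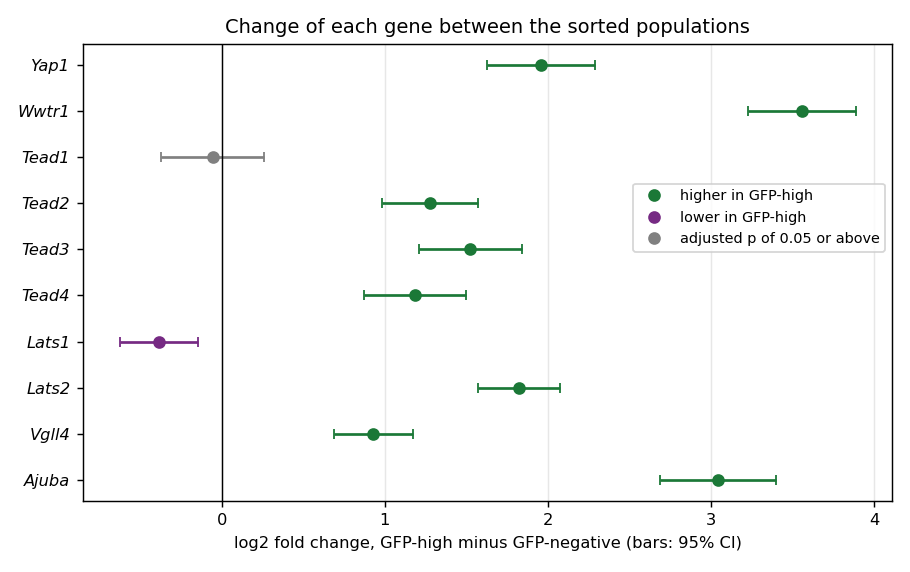
Log2 fold change of each gene, GFP-high minus GFP-negative (x axis, log2 units); points are estimates from 3 arrays per group and bars 95% confidence intervals from limma. Wwtr1 (3.56) and Ajuba (3.05) stand above the rest, and the interval of Tead1 crosses 0.

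GFP-high replicate 3 lay closer to the GFP-negative arrays than the other GFP-high arrays did for part of the genes. It held the lowest GFP-high value in 5 of the 8 higher genes (Yap1, Wwtr1, Tead3, Tead4 and Vgll4). Ajuba had its highest GFP-high value in this array (7.38). The share over all higher genes was not counted, so the 5 of 8 describes these genes only. In the same array neuroendocrine markers were less reduced, with a median of -1.74 from the GFP-negative mean, against -2.53 and -2.74 in GFP-high replicates 1 and 2, and alveolar type 2 markers were higher, at 3.98 against 2.61 and 2.84. Alveolar type 1 markers were lowest in it, at 1.57 against 2.22 and 1.90, and fibroblast and mural markers highest, at 0.54 against 0.21 and 0.02. The part of these markers in the values of the 10 genes was not tested. Without this array the same count of 8 genes was higher. Wwtr1 then changed by 3.65, Yap1 by 2.04, Tead4 by 1.31 and Ajuba by 2.98 on the log2 scale. Lats1 then did not pass (adjusted p = 0.0516).

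Other genes of the pathway moved in both directions, as did all genes, of which 13.0% were higher and 17.0% lower. Of 11 other kinases and adaptors of the cascade, 3 rose, 3 fell and 5 missed the threshold, and the median log2 fold change was 0.06. Taok3, a kinase that can start the cascade, rose by 1.90 ± 0.13 (9.65 ± 0.16 in GFP-high cells against 7.75 ± 0.14 in GFP-negative cells, SD, n = 3 each). The LATS-related kinases split, with Stk38 higher by 0.86 ± 0.12 and Stk38l at -0.71 ± 0.15, and the kinase Map4k1 was lower (-0.54 ± 0.16; log2 fold change ± SE). Among 18 upstream polarity and junction proteins 10 were higher, 2 lower and 6 did not pass (median 0.45). The highest changes were those of the large cadherin genes Dchs2 (3.64 ± 0.13), Fat2 (2.30 ± 0.13) and Fat3 (2.11 ± 0.20) and of Wwc2, a relative of the LATS activator KIBRA (2.59 ± 0.14). Dchs2 read 8.34, 7.92 and 8.06 in GFP-high cells, against 4.47, 4.47 and 4.45 in GFP-negative cells, which lie below the array medians, where folds are compressed. The GFP-negative values of Fat3 (4.59, 4.60 and 5.27) lay below these medians as well. The other FAT and Dachsous cadherins did not pass, with Fat1 at -0.20 ± 0.14, Fat4 at -0.59 ± 0.38 and Dchs1 at -0.22 ± 0.27 (log2 fold change ± SE; named with their values known). Nf2, the gene of merlin, which brings LATS to the membrane, was 1 of the 2 that were lower (-0.81 ± 0.11, adjusted p = 0.00052 by limma). It was singled out with its value known. Among those that rose were Wwc1, the gene of KIBRA (1.62 ± 0.18), and Frmd6 (1.81 ± 0.11, log2 fold change ± SE), also named with their values known.

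Of 18 other regulators of YAP and TAZ, 6 were higher, 3 lower and 9 did not pass (median 0.03). The angiomotin-like proteins, which hold YAP and TAZ in the cytoplasm, were among the highest, with Amotl2 at 1.53 ± 0.14 and Amotl1 at 1.45 ± 0.13, as was the phosphatase Ptpn14, which binds YAP, at 1.34 ± 0.14 (log2 fold change ± SE). Their relative Amot was lower (-0.42 ± 0.14, adjusted p = 0.0497 by limma), at the edge of the threshold. This list had 2 lower genes in place of 3 with quantile normalization, array weights, every row on its own or a replicate block. With an array left out it had 2 to 3. Ywhaq, an adaptor of the family that binds phosphorylated YAP, was lower by the widest margin (-0.90 ± 0.13). Of 16 target genes of YAP and TAZ outside the 10 genes and the lists above, 10 were higher, 1 lower and 5 did not pass (median 0.83). They were led by Myof, a membrane repair protein (4.04 ± 0.13), the growth factor Tgfb2 (3.11 ± 0.23), the matricellular protein Ccn1 (3.03 ± 0.26) and tissue factor, F3 (2.69 ± 0.26). The GFP-negative values of Tgfb2 (5.20, 4.82 and 4.87) lay below the array medians, where folds are compressed. The lower gene was Asap1 (-1.36 ± 0.21), and Ankrd1 was among those that did not pass (0.26 ± 0.19, log2 fold change ± SE). Against these counts, 13.0% of all genes were higher and 17.0% lower. The pathway lists were also chosen with earlier results of these data known, so the counts are a description. Without GFP-high replicate 1 the kinases had 1 lower gene in place of 3 and the upstream proteins 1 in place of 2.

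**Figure D3:**
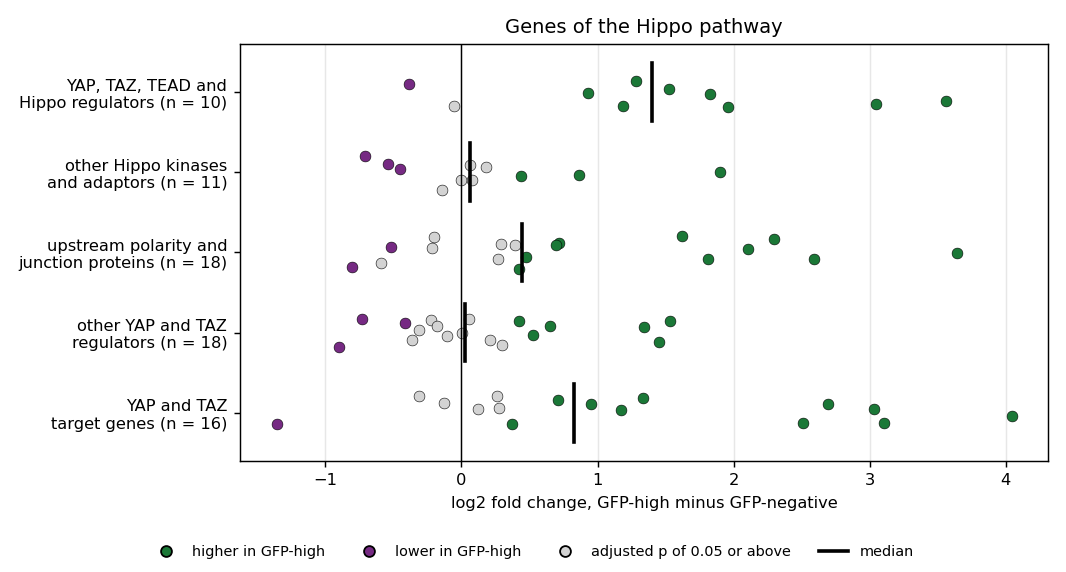
Log2 fold change, GFP-high minus GFP-negative (x axis), of every measured gene in 5 lists; each point is a gene, coloured by its call at an adjusted p under 0.05, and black bars are medians. The medians are 1.40 for the 10 genes described here, 0.06, 0.45 and 0.03 for the other pathway lists, and 0.83 for the target genes.

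The genes whose values ran most closely beside those of the coactivators were found by the root mean square difference of log2 values over the 6 arrays, after each gene's mean was taken off, among 18692 genes. This measure is set mostly by the difference between the groups. Nearest to Wwtr1 were the laminin gene Lamb2 (difference 0.10, log2 fold change 3.49), the receptor gene Notch1 (difference 0.10, log2 fold change 3.46) and the chromatin gene Cecr2 (difference 0.13, log2 fold change 3.68). The GFP-negative values of Cecr2 (4.47, 3.95 and 4.23) lay below the array medians, where folds are compressed. Nearest to Yap1 were Akap2, which anchors protein kinase A (difference 0.05, log2 fold change 2.02), the sulfatase gene Sulf2 (difference 0.10, log2 fold change 1.86) and the kinase gene Stk10 (difference 0.11, log2 fold change 2.15).

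The sort and the cell types were checked in the same arrays, where 13.0% of all genes were higher, 17.0% lower and 44.6% had groups that did not overlap. The marker lists were chosen with earlier results of these data known. Hes1, the reporter's gene, averaged 10.40 ± 0.11 in GFP-high cells and 6.85 ± 0.18 in GFP-negative cells (SD, n = 3 each). All 10 measured neuroendocrine markers were lower in GFP-high cells, with mean log2 levels per array of 7.44 to 8.46 in GFP-high cells, against 10.03 to 10.17 in GFP-negative cells. The defining markers of the labelled tumour were thus high in GFP-negative cells and reduced, but above the array medians on average, in GFP-high cells. Alveolar and club cell markers were higher in GFP-high cells. All 10 alveolar type 1 markers were higher (mean levels 9.01 to 9.33 in GFP-high cells, against 6.94 to 7.05 in GFP-negative cells), as were 8 of 10 alveolar type 2 markers (9.51 to 10.01 in GFP-high cells, against 6.29 to 6.68 in GFP-negative cells) and 9 of 10 club cell markers (11.79 to 11.92 in GFP-high cells, against 7.69 to 8.53 in GFP-negative cells). Their part in the values of the 10 genes was not tested. Of the lung cell types that also express YAP and TAZ outside the epithelium, 1 of 10 endothelial markers was higher and 1 lower, with mean levels of 5.34 to 5.35 in GFP-high cells and 4.97 to 5.08 in GFP-negative cells. The defining endothelial genes Pecam1 (5.36 in GFP-high cells against 5.42 in GFP-negative cells) and Cdh5 (5.07 in GFP-high cells against 5.02 in GFP-negative cells) lay near the array medians and did not pass, while Kdr was higher (log2 fold change 3.87). Erg was the lower marker (log2 fold change -1.31, 5.14 in GFP-high cells against 6.45 in GFP-negative cells). Of 11 fibroblast and mural markers 1 was higher and 1 lower (mean levels 5.44 to 5.97 in GFP-high cells, against 5.45 to 5.59 in GFP-negative cells). The lower one, Dcn, lay far above these means, at 9.30 in GFP-high cells against 10.77 in GFP-negative cells. No leukocyte marker of 9 passed the test in limma, nor did their groups separate in any (mean levels 4.90 to 5.24 in GFP-high cells, against 4.99 to 5.26 in GFP-negative cells). Of 9 ciliated markers 1 was higher and 2 lower, and of 5 basal markers 1 was higher.

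**Figure D4:**
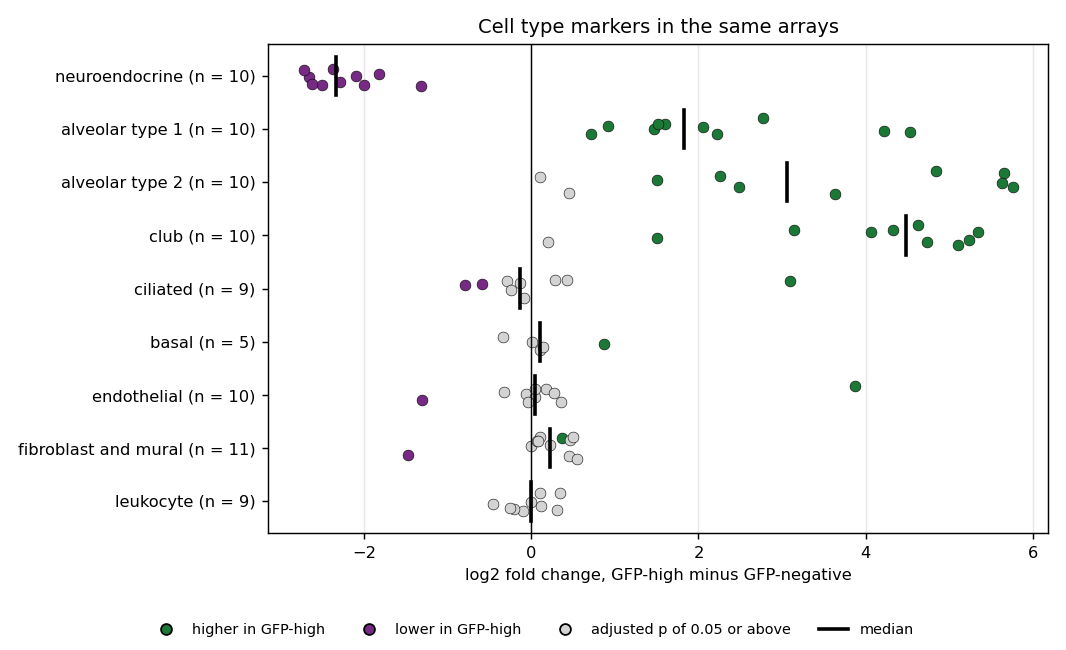
Log2 fold change, GFP-high minus GFP-negative (x axis), of the measured markers of 9 cell types in the same 6 arrays; each point is a gene, coloured by its call, and black bars are medians. Neuroendocrine markers lie below 0 (median -2.34), club, alveolar type 2 and alveolar type 1 markers lie mostly above it (medians 4.48, 3.06 and 1.83), and the other lists centre near 0.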

How the data were processed

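RNA from 3 GFP-high and 3 GFP-negative samples was measured on arrays of the Affymetrix Mouse Gene 2.0 ST type, per the labels. The deposited values are log2 expression values that the authors made with RMA, per the submitters' processing notes; the sources used here do not state its version. RMA equalises the arrays, so a change common to most genes cannot be seen. The log2 scale follows from the values (0.989 to 13.7, array medians 5.30 to 5.43). Of 41344 rows, 23520 are annotated with 1 gene, 1814 with several and 16010 with none. The row with the highest mean stood for each of 22179 genes, with no filter on low values. The number of arrays limits the precision.

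GFP-high minus GFP-negative was fitted over all genes with limma 3.58.1 in R 4.3.3 (lmFit, eBayes, 4.50 prior and 4 residual degrees of freedom, no block), with Benjamini-Hochberg adjustment and calls at an adjusted p under 0.05; the fit was also tested on simulated data. Changes of related genes were compared by exact two-sided permutation of within-array differences (8 pairs, scipy 1.17.1). The 10 genes, the pathway lists and the marker lists were chosen with earlier results of these data known. Of the 73 places in the pathway lists 10 were not analysed here, and of the 89 marker places 5 were not. The genes named in the text are the 10, the 4 with the largest absolute change in each pathway list, the 3 nearest in pattern to Yap1 and to Wwtr1, and Hes1. Marker genes, Nf2, Wwc1, Frmd6, Amot, Fat1, Fat4, Dchs1, Asap1 and Ankrd1 were named after their values were seen. Alternatives were centring each array on its median, quantile normalization, a filter that drops the lowest 30% of genes, the mean of a gene's rows, every row on its own, trend and robust eBayes, array weights, a replicate block, each array left out, and a minimum log2 fold change of 1.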

Additional observations from a re-analysis of the deposited data

How the results depend on the processing

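Each of the 10 genes was refitted under 15 alternatives, and 138 of the 150 values kept their direction and their side of the threshold. The count of 8 higher genes held in 14 of 15. Testing for a log2 change beyond 1 left 4 higher and 0 lower, because Tead2 (1.28, adjusted p = 0.426), Tead3 (1.52, adjusted p = 0.0507), Tead4 (1.18), Vgll4 (0.93) and Lats1 (-0.39) no longer passed; 4.79% of all genes (1063) passed it. Under it the other kinases had 1 higher and 0 lower, the upstream proteins 5 and 0, the other regulators 0 and 0, and the targets 5 and 0.

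With the replicate number as a block Lats1 (-0.39, adjusted p = 0.0551) did not pass, which left 0 lower genes, and no other call among the 10 changed. Whether arrays of the same number share a pool is not known. Deviations from the group means correlated at 0.11, -0.026 and -0.0016 between arrays of the same number and at most at 0.063 between others, and 2 of 6 arrays correlated best with their own number. With each array left out in turn, the lower genes among the 10 numbered 0 to 1 and Lats1 ranged from -0.43 to -0.35. Lower genes ranged from 1 to 3 among the other kinases and from 1 to 2 among the upstream proteins. Tead1 ranged from -0.13 to 0.069, with its sign reversed without GFP-negative replicate 3, and Tead4 minus Tead2 ranged from -0.17 to 0.035, with its sign reversed without GFP-high replicate 3. Tead3 minus Tead2 ranged from 0.14 to 0.34. The array-wise shifts of median centring were at most 0.05. With the mean of its rows Yap1 was 1.23. The causes of these differences between fits were not tested. The other calls among the 10 genes and the other counts of called genes were kept or stayed within 1.5 times. With 3 arrays per group, an exact permutation cannot go below 0.10. With an array left out that floor is higher, and the pairs of related genes had adjusted p-values from 0.229 up. The rise of these p-values is therefore no measure of weaker differences.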
